A study of Mus musculus with 12 samples.

Results

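Axl and Tyro3 were the 2 TAM receptors with a row in a table of 479 genes measured in the thymus of 12 mice. They were taken by their symbols alone. The table held log2(FPKM + 5) values, where FPKM is fragments per kilobase of transcript, scaled to the mapped reads of the sample, and levels are given below as FPKM after that transform was undone. Each RNA sample came from the whole thymus of 1 mouse at 1 month of age. Of the mice, 6 were wild type (WT) and 6 were Axl-/-Mertk-/- (AMDKO in the labels), with 3 males and 3 females per genotype, and mice are numbered 1 to 6 within their genotype. The mutants lack Axl and Mertk in all cells from conception and carry no targeted change in Tyro3. All mutant lines had been backcrossed for many generations to C57BL/6, and WT and mutant lines were housed separately, so genotype and housing cannot be told apart.

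TAM receptors are a small family of receptor tyrosine kinases made up of Tyro3, Axl and Mer, the last encoded by Mertk. Their ligands, Gas6 and protein S, bridge the receptor to phosphatidylserine displayed on dying cells, so that a phagocyte carrying a TAM receptor can bind and engulf an apoptotic cell. In the thymus most developing T cells die, and macrophages clear them. Mertk was not analysed here, since it has no row in the table, so the measured TAM mRNA is that of the receptor that was mutated (Axl) and the receptor that was left intact (Tyro3).

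Nearly the whole table separates the genotypes, with 455 of its 479 genes past an adjusted p of 0.05 in limma, so its rows were not an unselected set. A genotype difference of either receptor is therefore a description of its size, and its test is not independent evidence. The sex term and the correlation of the receptors within a genotype are other measures than that contrast. None of the 8 thymocyte markers and none of the 10 thymic epithelial markers looked up had a row, so the labelled tissue could not be checked against them. Depth, estimated from the steps between low values, was 18840000 to 24510000 reads in WT and 19320000 to 23830000 reads in mutant samples.

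Axl lies on chromosome 7, from 25757273 to 25788705 on the minus strand of mm10, and Tyro3 on chromosome 2, from 119797733 to 119818104 on the plus strand (GENCODE vM21, ENSMUSG00000002602.16 and ENSMUSG00000027298.17). For each gene, exon reads of 1 isoform (the top isoform) gave the value. No other annotated gene shares an exon base with either of them, and no stretch of 50 bases, the read length, was shared between their transcripts and those of any other gene, Mertk included. The start sites differ in composition. The 98 bases before each RefSeq start site, which is the longest window free of annotated exons at both genes, are shown 5′ to 3′ on the strand of the gene, with the GC box GGGCGG (either strand) in capitals. For Axl the window is chr7:25788734-25788831 (minus strand) and for Tyro3 chr2:119799416-119799513 (plus strand), both from RefSeq on GRCm38.p6. The Axl window lies outside the GENCODE bounds of Axl. The Tyro3 window lies inside those of Tyro3, because GENCODE starts that gene further upstream, at 119797733, so the windows are not fully alike.
Axl: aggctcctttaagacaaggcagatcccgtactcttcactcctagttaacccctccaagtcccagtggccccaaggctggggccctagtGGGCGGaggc
Tyro3: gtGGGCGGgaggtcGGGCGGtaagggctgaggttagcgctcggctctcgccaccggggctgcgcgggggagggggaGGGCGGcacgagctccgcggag
The Tyro3 window held 3 GC boxes and 13 CpG dinucleotides at 77.55% G + C, and the Axl window held 1 GC box and 2 CpG dinucleotides at 60.2% G + C. A GC box occurred in 24.46% of the same windows at all 32851 RefSeq promoters. The letters TATAAA, present in 5.485% of all windows, were in neither. These are matches of letters and were not tested for binding.

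Axl, the mutated gene, was examined first as a check of the labels. In the WT thymus it stood at 11.87 (female 1), 12.33 (female 5), 12.40 (male 4), 12.98 (female 3), 13.54 (male 6) and 16.89 FPKM (male 2). In the Axl-/-Mertk-/- thymus it stood at 1.921 (female 2), 2.033 (female 6), 2.117 (male 1), 2.153 (male 3), 2.358 (female 4) and 2.452 FPKM (male 5). All 6 mutants were below all 6 WT mice, so the genotype labels and the Axl level went together in every sample. The means were 13.3 ± 1.83 and 2.17 ± 0.199 FPKM (SD, n = 6 each), and the lowest WT mouse was 4.842-fold above the highest mutant. On the log2(FPKM + 5) scale Axl was lower by a log2 change of -1.35 (SE 0.0509, adjusted p = 3.44e-08, limma with sex as covariate, adjusted over all 479 genes). Of the table, 61.8% of genes were lower and 33.2% were higher at an adjusted p under 0.05. Both thresholds of the study, an adjusted p under 0.05 and a log2 change beyond 0.5, were passed by 3.13% of genes in the lower direction, Axl among them, and by 2.92% in the higher direction.

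Axl mRNA was not absent from the mutants. The residual signal was 16.3% of the WT mean, and single mutants ranged from 14.4% (female 2) to 18.4% (male 5). This spread was narrow, with a coefficient of variation of 9.177% among mutants against 13.75% among WT mice. At the length of the longer RefSeq transcript (4265 bases) the mutant values correspond to about 168 to 240 reads per sample and the WT values to 954 to 1688 reads, which would give a counting error near 7.109% in the mutants. The spread of residual Axl was thus little above the counting error. A sum over exons does not show which exons the residual reads fall in, or whether they could encode a receptor. By its percent of WT, Axl ranked 4 from the lowest of the 479 genes.

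Tyro3 is the TAM receptor best known from the nervous system. It was low in the WT thymus, at 0.638 (male 6), 0.743 (female 5), 0.759 (male 4), 0.965 (female 3), 0.976 (male 2) and 1.04 FPKM (female 1). Mutants had 1.343 (male 3), 1.689 (male 1), 1.959 (male 5), 1.969 (female 2), 2.75 (female 6) and 2.869 FPKM (female 4). The groups did not overlap, but the gap was small, since the lowest mutant was only 1.291-fold above the highest WT mouse. The means were 0.854 ± 0.161 and 2.10 ± 0.599 FPKM (SD, n = 6 each), so the mutant mean was 2.456-fold the WT mean. Mice of the 2 genotypes also did not overlap for 26.3% of table genes in the lower direction and for 12.7% in the higher direction.

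On the deposited scale Tyro3 was higher in mutants by 0.27 (SE 0.0404, adjusted p = 0.000426, limma), which passes the adjusted p and misses the log2 change of 0.5. The added 5 FPKM is larger than every Tyro3 value and compresses its change. With a constant of 1 the log2 change was 0.72 (adjusted p = 0.000103, limma) and with a constant of 0.1 it was 1.18 (adjusted p = 2.42e-05, limma), past both thresholds. The WT values of Tyro3 rest on about 59 to 92 reads per sample at a transcript length of 3989 bases, and the mutant values on about 113 to 273 reads.

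**Figure D1:**
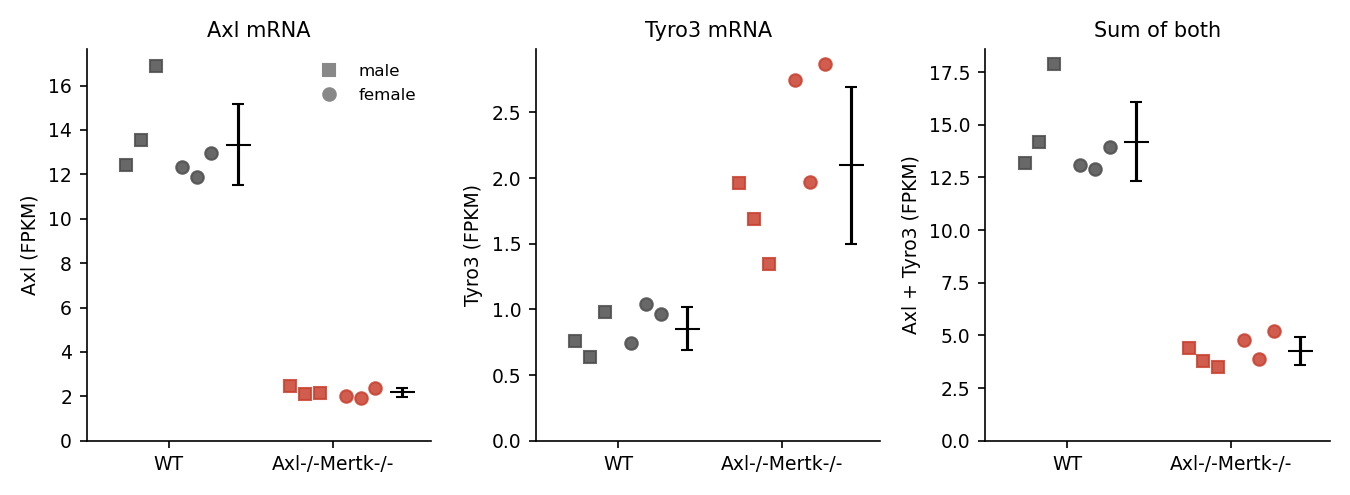
Axl, Tyro3 and their sum in FPKM (vertical axes, linear) in the thymus of 6 WT (grey) and 6 Axl-/-Mertk-/- mice (red), with males as squares, females as circles, and the mean ± SD of each genotype as a black bar to the right. All mutants lie below all WT mice for Axl and for the sum, and above them for Tyro3, where the spread among mutants is 0.599 FPKM against 0.161 among WT mice.

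Placed in order on the per-length FPKM scale, WT Axl was highest (13.3), then mutant Axl (2.17) and mutant Tyro3 (2.10), then WT Tyro3 (0.854). The neighbours mutant Axl and mutant Tyro3 did not differ beyond their spread, while the other steps separated every mouse. The ratio of Tyro3 to Axl within a mouse was 0.0471 to 0.0876 in WT (median 0.0607) and 0.624 to 1.35 in mutants (median 0.912). Mutant males had ratios of 0.624, 0.798 and 0.799, and mutant females 1.025, 1.217 and 1.353, so that Tyro3 mRNA exceeded residual Axl mRNA in the 3 females and was below it in the 3 males. This split by sex was not tested. The mean log2 ratio differed by 3.88 between genotypes, or 14.74-fold (two-sided exact permutation test, p = 0.00216, the smallest that 924 arrangements allow, n = 6 each).

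The gain in Tyro3 was small beside the loss of Axl. Mean Axl differed by -11.16 FPKM (mutant minus WT) and mean Tyro3 by 1.243 FPKM. The sum of both was 14.2 ± 1.87 FPKM in WT and 4.27 ± 0.657 FPKM in mutants (SD, n = 6 each). It ran from 12.9 to 17.9 FPKM in WT and from 3.496 to 5.227 FPKM in mutants, with no overlap (two-sided exact permutation test, p = 0.00216). Tyro3 made up 6.06% ± 1.24 of the sum in WT and 48.4% ± 7.23 in mutants (SD, n = 6 each). The 4 exact tests of genotype (Axl, Tyro3, ratio and sum) all reached this smallest p, which stays 0.00216 after Benjamini-Hochberg adjustment over them, and with mice permuted only within their sex all gave p = 0.005, the smallest that 400 arrangements allow.

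**Figure D2:**
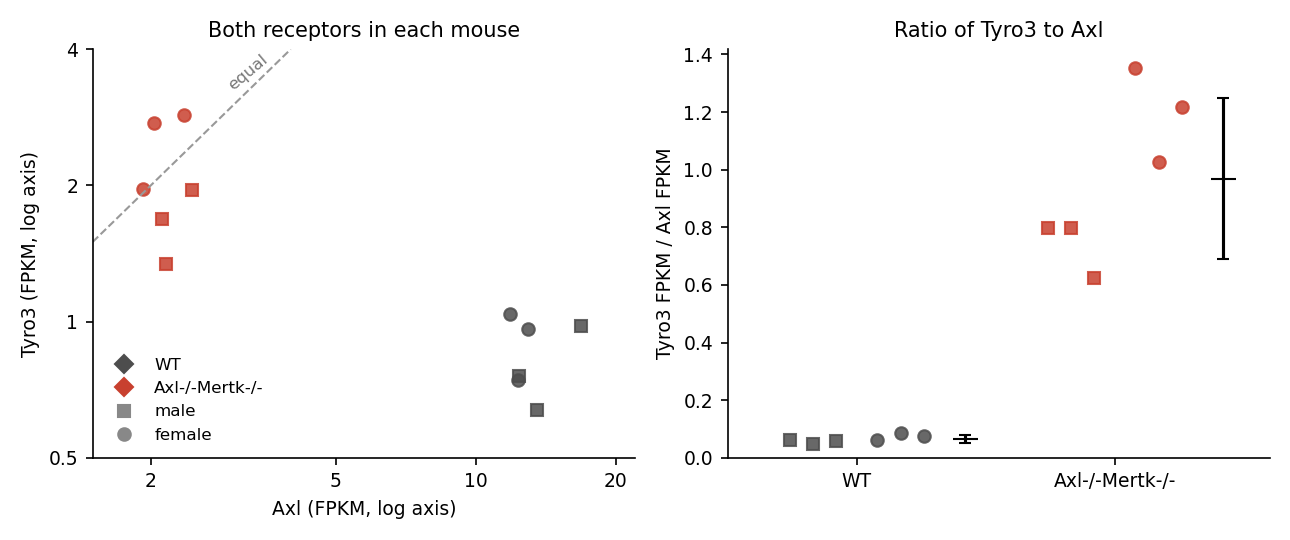
Left, Tyro3 against Axl in each mouse (FPKM, both axes logarithmic, dashed line at equal levels). Right, the ratio of Tyro3 to Axl by genotype (linear axis, black bar mean ± SD), with WT in grey, Axl-/-Mertk-/- in red, males as squares and females as circles. WT ratios stay at or below 0.0876, and the mutant ratios are highest in the 3 females.

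Within a genotype no correlation of the receptors passed a test over 6 mice. Among WT mice Pearson's r of Axl with Tyro3 was 0.167 (exact permutation p = 0.869, n = 6) and Spearman's rho -0.20 (exact permutation p = 0.714). Among mutants r was 0.135 (exact permutation p = 0.808, n = 6) and rho -0.0857 (exact permutation p = 0.919). The adjusted p over the 4 coefficients was 0.919 for each (Benjamini-Hochberg, exact permutation). Leaving out the 2 mice farthest from the median of Axl turned r to -0.20 in WT (male 2 and female 1) and to -0.53 in mutants (male 5 and female 4), so the sign of r depended on those mice. With the mean of each sex removed, r was 0.552 in WT (rho 0.486, exact permutation p of r within sex = 0.417) and 0.771 in mutants (rho 0.943, exact permutation p of r within sex = 0.167), so the coefficients also depended on sex. Samples were not pooled across genotypes, because the genotypes form separate clusters.

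Sex was compared because both sexes were sampled and it is another measure than the contrast behind the table. Mutant females had 1.969 to 2.869 FPKM of Tyro3 and mutant males 1.343 to 1.959 FPKM, so the sexes did not overlap among mutants, although the nearest values were almost equal. How many other table genes split this way was not counted. Among mutants alone the sex term of Tyro3 had an unadjusted p of 0.0301 (adjusted p = 0.408, limma), and 50 of 479 genes had an unadjusted p under 0.05. WT females (0.743 to 1.04 FPKM) and WT males (0.638 to 0.976 FPKM) overlapped. Over all mice Tyro3 was 0.10 higher in females on the log2(FPKM + 5) scale (SE 0.0404, unadjusted p = 0.0280, adjusted p = 0.304, limma), and Axl was lower by a log2 change of -0.08 (SE 0.0509, adjusted p = 0.452, limma). Neither passed, and at an adjusted p under 0.05 the sex term called 0 of 479 genes (0%, limma) while 69 had an unadjusted p under 0.05. The interaction of genotype and sex was 0.14 for Tyro3 (SE 0.0706, unadjusted p = 0.0703, adjusted p = 0.962, limma) and 0.11 for Axl (adjusted p = 0.962, limma). It also called 0 of 479 genes (0%, limma), with 15 at an unadjusted p under 0.05.

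The coefficient of variation of Tyro3 among mutants was 28.56%, with a counting error near 7.681%, where the median over table genes with a mean of at least 1 FPKM was 20.015% and Axl had 9.177%. In WT mice the coefficient of variation of Tyro3 was 18.88% against a counting error near 11.49%. The variation of Tyro3 among mutants went along with that of part of the genes near it on chromosome 2, 8 of 15 within 2 Mb having an r beyond 0.8 and 7 of 15 not.

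Ltk, a receptor tyrosine kinase whose gene lies 0.0373 Mb from Tyro3, was the nearest gene of the table. Its WT values were 0.018 to 0.230 FPKM. Among mutants it stood at 1.658 (male 3), 2.143 (female 2), 2.294 (male 5), 2.347 (male 1), 3.697 (female 4) and 4.219 FPKM (female 6). Females 6 and 4, the mice with the most Tyro3, thus also had the most Ltk, and Pearson's r with Tyro3 among the 6 mutants was 0.946. The other nearest genes were Itpka, an inositol trisphosphate kinase (r = 0.951 among mutants), Oip5, a centromere gene (r = 0.692), Jmjd7 (r = -0.944) and Gm28042 (r = -0.932). Gm28042 overlaps both Jmjd7 and Pla2g4b (r = -0.933) on the same strand, though Jmjd7 and Pla2g4b do not overlap each other. Reads may be shared through Gm28042, so the 3 genes were counted as 1 observation.

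Slc28a2, a nucleoside transporter gene 2.608 Mb from Tyro3, had the lowest r with Tyro3 over within-genotype deviations of all 12 mice (-0.950, among genes with a mean of at least 1 FPKM). Its WT values were 8.058 to 10.285 FPKM, and its mutant values were 6.338 (male 3), 5.801 (male 1), 5.516 (male 5), 5.309 (female 2), 2.921 (female 6) and 2.134 FPKM (female 4). This is the reverse of the order of Tyro3 in all 6 mutants. Sqrdl, 2.947 Mb away and named after its values were seen, stood at 0.536 (female 6) and 0.962 FPKM (female 4) against 3.316 to 5.596 FPKM in the other 4 mutants. Jmjd7 stood at 1.602 and 0.762 FPKM in females 6 and 4 against 4.178 to 4.979 FPKM in the others. In these genes females 6 and 4 stood apart from female 2, which lay near the males.

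**Figure D3:**
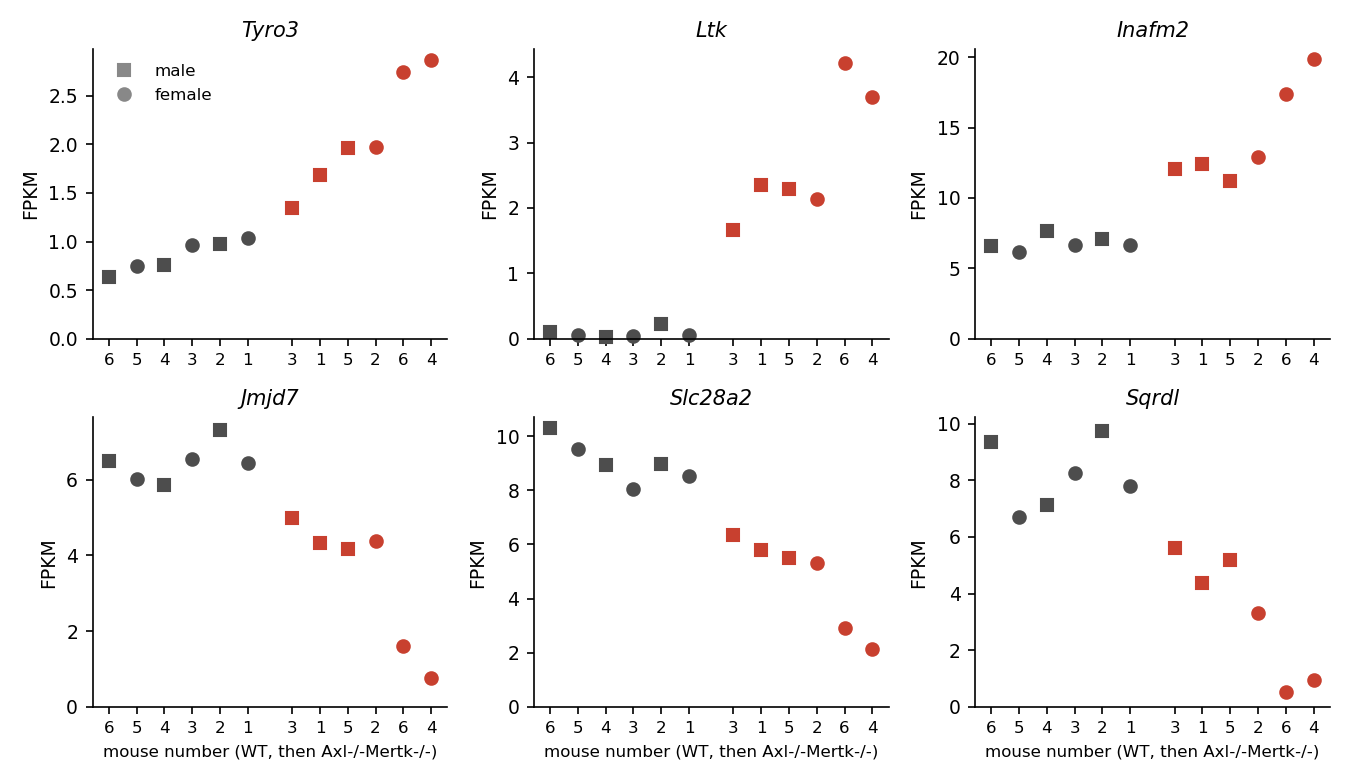
Levels (FPKM, linear axes from 0) of Tyro3 and 5 genes within 3 Mb of it in each mouse, ordered along the horizontal axis by Tyro3 within WT (grey) and within Axl-/-Mertk-/- (red), with males as squares and females as circles. Mutant females 6 and 4 are highest for Tyro3, Ltk and Inafm2 and lowest for Jmjd7, Slc28a2 and Sqrdl.

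Of the 15 table genes within 2 Mb of Tyro3, 8 (53.33%) had an r with it beyond 0.8 in either direction among the 6 mutants, 3 positive and 5 negative. With Jmjd7, Gm28042 and Pla2g4b counted once, these were 6 of 13 (46.15%), 3 positive and 3 negative. The same held for 28 of the remaining 463 table genes (6.048%), for 25 of 410 on other chromosomes (6.098%) and for 0 of 33 on chromosome 2 at more than 10 Mb. Among the 6 WT mice 0 of the 15 and 18 of the remaining 463 (3.888%) passed that limit. Within 10 Mb of Tyro3 it was passed by 11 of 27 (40.74%) among mutants and 1 of 27 (3.704%) among WT mice. An r in WT is less well measured, since WT Tyro3 rests on about 59 to 92 reads. Some of the 15 genes were also near the floor in WT, such as Exd1 (mean 0.058 FPKM) and Ltk (0.082). The 2 Mb window and the limit of 0.8 were not planned. With each mutant left out in turn the number, overlapping genes counted singly, was 7 to 10 of 15, lowest without female 4. Over the whole table the share beyond 0.8 also rose in these runs, to 11.09% to 13.39%, from 7.531% with all 6 mutants. These coefficients are across 6 mice and are given as a description with no p, and neighbouring genes are not independent of each other.

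**Figure D4:**
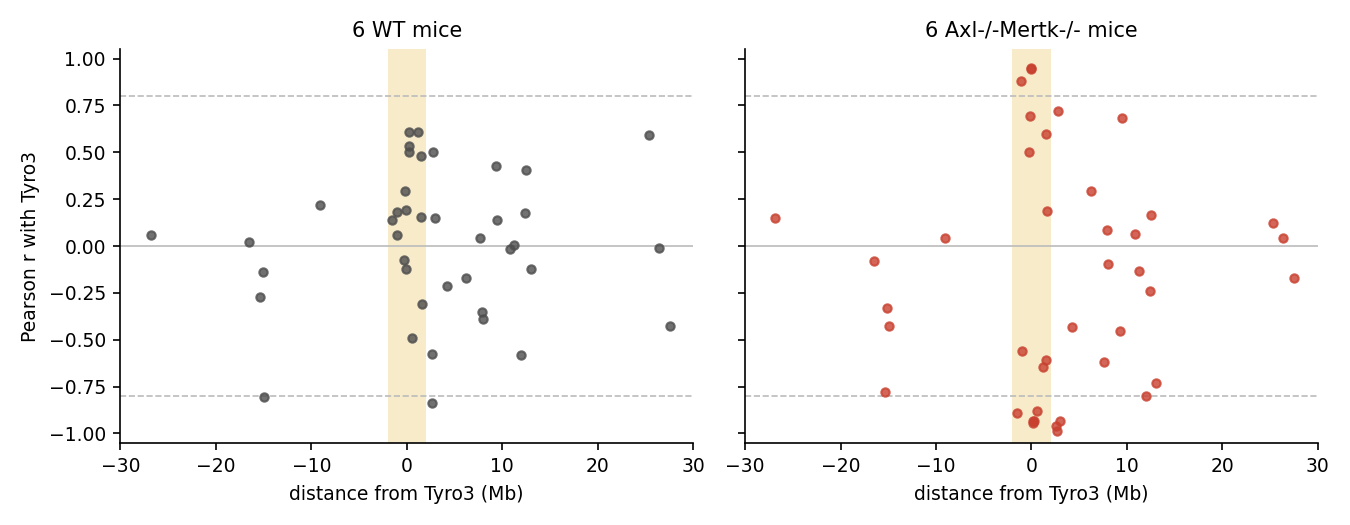
Pearson's r with Tyro3 on the log2(FPKM + 5) scale (vertical axis) for table genes of chromosome 2 up to 30 Mb from Tyro3 (horizontal axis, negative before the gene), in WT (left, grey) and Axl-/-Mertk-/- mice (right, red), with the 2 Mb window shaded and dashed lines at 0.8 and -0.8. In mutants 8 of the 15 genes in the window lie beyond the dashed lines, among them Gm28042 with Jmjd7 and Pla2g4b, which it overlaps. In WT 0 of 15 do.

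Mertk lies on the same chromosome, from 128698956 to 128802894, at 8.88 Mb from Tyro3. The mutated Mertk allele is present in every mutant and in no WT mouse. A response of Tyro3 to the loss of Axl and Mertk and a difference carried by DNA linked to the Mertk allele therefore cannot be told apart with these groups. How far DNA linked to the Mertk allele extends, and the genotype of the region around Tyro3 in single mutants, were not analysed here.

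Over within-genotype deviations of all 12 mice, the genes most like Tyro3 were Ltk (r = 0.899), Inafm2 (0.818), Gatm, which makes the creatine precursor guanidinoacetate (0.692), Hist1h2bj, a histone gene (0.651), and Tspan10, a tetraspanin gene (0.542). The first 3 of them lie on chromosome 2 within 3 Mb of Tyro3. Those least like it were Slc28a2, Jmjd7 (-0.851) and Ganc, a glucosidase gene (-0.848), all within 3 Mb as well. In WT mice alone r with Tyro3 was 0.193 for Ltk, 0.0616 for Inafm2 and 0.503 for Jmjd7, which differs in sign from the mutants, so the likeness to these genes rests on the mutants. That of Slc28a2 was -0.839 in WT and -0.961 in mutants.

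For Axl the genes most alike were Kcnk6, a potassium channel gene on chromosome 7 (r = 0.949), the complement gene C2 (0.917), the apolipoprotein gene Apod (0.899), Hap1 (0.897) and the cyclooxygenase gene Ptgs1 (0.887). Those least alike were Ckap2l (-0.792), Oip5 (-0.762) and Cdkn3 (-0.729), which act in cell division. No table gene lay within 2 Mb of Axl. Genes within 10 Mb included Kcnk6, the apolipoprotein gene Apoc1, the kinase gene Dmpk and the exchanger gene Slc8a2, and the r of these 4 with Axl among mutants ran from -0.03 (Slc8a2) to 0.64 (Dmpk). WT male 2 was the highest WT mouse for Axl, Kcnk6 (4.033 FPKM, against 2.552 to 3.025 in the other WT mice), C2 (3.812 against 2.48 to 2.714) and Apod (5.842 against 1.776 to 3.828). Without it the r of Axl over within-genotype deviations of the other 11 mice was 0.756 for Kcnk6, 0.515 for C2, 0.751 for Apod, 0.707 for Hap1 and 0.597 for Ptgs1. Among the 6 mutants alone it was 0.946 for Apod and 0.847 for Hap1, and lower for Ptgs1 (0.697), Kcnk6 (0.499) and C2 (0.388). The least alike genes were also less opposed without WT male 2, at -0.516 (Ckap2l), -0.577 (Oip5) and -0.32 (Cdkn3). Among the 6 mutants alone their r was -0.125, -0.441 and -0.097 in the same order.

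In bulk thymus RNA fewer cells of a type and less RNA per cell cannot be told apart, so markers of phagocytic macrophages, the cells in which thymic TAM receptors are best known, were set beside both receptors. The table held 8 of the 15 markers, Timd4, Vcam1, Cd163, Spic, Itgad, Slc40a1, Siglec1 and C1qa, and all 8 were lower in mutants at an adjusted p under 0.05 (limma), at 10.6% to 70.7% of WT, in a table where 61.8% of genes were lower by that threshold and the median gene was at 67.6% of WT. Their summed level was 135.6 to 211.8 FPKM in WT and 78.91 to 121.8 FPKM in mutants, and most of it is C1qa and Vcam1. Adgre1, Cd68 and Csf1r, defining macrophage markers, have no row and were not analysed here. Axl, at 16.3% of WT, was lower in proportion than 7 of the 8 markers, the exception being Itgad, an integrin chain of red pulp macrophages, at 10.6%.

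Set against the marker sum, Axl was 7.974% to 8.834% of it in all 6 WT mice, male 2 included, and 1.87% to 2.566% of it in the mutants. Among WT mice r of Axl with single markers was 0.31 to 0.98, positive for 8 of 8 and beyond 0.8 for 4, where 79.29% of all other table genes were positive and 23.43% beyond 0.8. Without male 2 it was -0.39 to 0.89, positive for 5 of 8 and beyond 0.8 for 1. Of all other table genes 70.5% were then positive and 13.18% beyond 0.8. The covariation in WT thus rested largely on male 2. Among mutants r of Axl with single markers was -0.16 to 0.82 (median 0.315), positive for 7 of 8 and beyond 0.8 for 1. The table shares among mutants were 67.36% and 9.833%. C1qa, the complement component that coats dying cells, had the highest of these r, at 0.893 among the other 5 WT mice and 0.823 among mutants.

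Tyro3 was 0.405% to 0.767% of the marker sum in WT and 1.166% to 3.471% in mutants. Its r with single markers was -0.32 to 0.25 in WT and -0.48 to 0.35 in mutants, beyond 0.8 for 0 of 8 in both, where 3.766% of all other table genes in WT and 7.531% in mutants were beyond 0.8. Without WT male 2 the r of Tyro3 with single markers in WT was -0.83 to -0.20, so it also depended on that mouse. It was then positive for 0 of 8 and beyond 0.8 for 1, where 33.89% of all other table genes were positive and 12.97% beyond 0.8. Females 6 and 2 had the lowest marker sums (79.24 and 78.91 FPKM), yet differed in Tyro3 (2.75 and 1.969 FPKM). The part of the macrophage markers in the difference of either receptor was not tested.

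**Figure D5:**
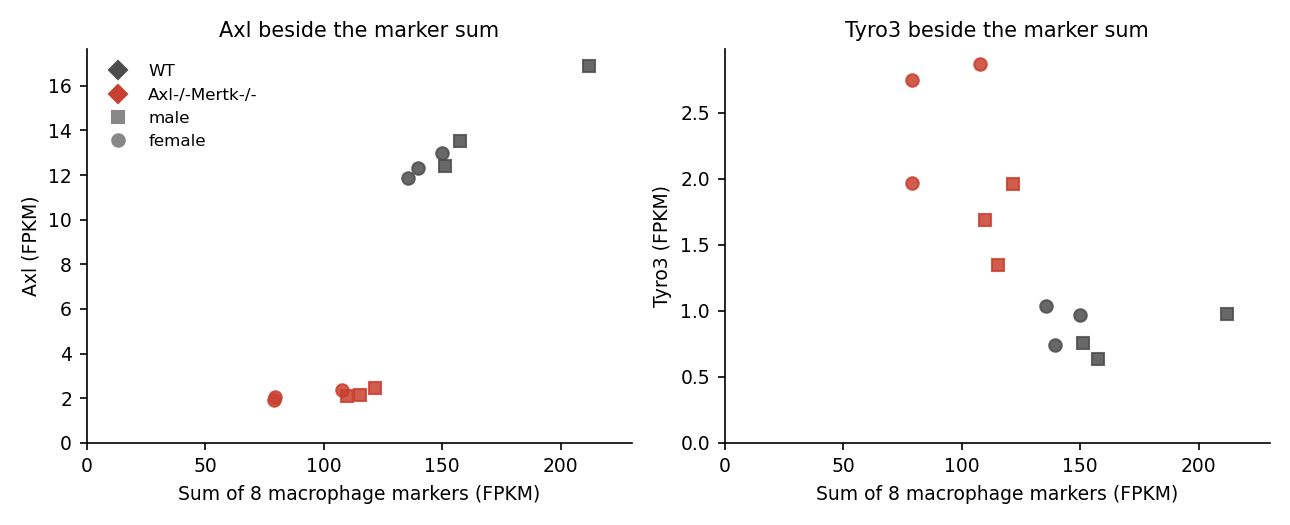
Axl (left) and Tyro3 (right) in FPKM against the summed FPKM of 8 macrophage markers in each mouse, all axes linear, with WT in grey, Axl-/-Mertk-/- in red, males as squares and females as circles. WT mice keep Axl at 7.974% to 8.834% of the sum, while mutants lie lower for both Axl and the sum and higher for Tyro3.

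Of other cell types, 3 of 9 dendritic cell markers had a row and were lower at an adjusted p under 0.05 (limma). They were the chemokine genes Ccl22 (54.9% of WT) and Ccl17 (63.5%) and the lectin gene Cd209a (53.1%). Genotypes did not overlap for Ccl22 but overlapped for Ccl17 and Cd209a. Cx3cr1, the 1 of 5 monocyte and neutrophil markers with a row, was higher (173.9% of WT), without overlap. Pdgfra, the 1 of 5 fibroblast markers with a row, was lower (69.2%), with overlap. By the same threshold 61.8% of all 479 genes were lower and 33.2% higher, and the median gene stood at 67.6% of WT. Whether the numbers of these cells changed was not tested. Markers of thymocytes, thymic epithelium, plasmacytoid dendritic cells, endothelium, B cells and erythroid cells had no row, so their levels beside the receptors were not analysed here.

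The other genes of the pathway were largely outside the table. Of 8 TAM receptors and ligands the table held Axl and Tyro3 alone, and of 26 genes for receptor shedding and downstream signalling it held 0. A gene without a row was not analysed here, and its absence says nothing of its level. Of 37 other genes for recognition of apoptotic cells it held 6. Of these, 3 were lower and 2 higher in mutants at an adjusted p under 0.05 (limma), where 61.8% of the table was lower and 33.2% higher. The median log2 change was -0.05 for the 6 and -0.05 for the whole table.

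Timd4, a phosphatidylserine receptor of resident macrophages, fell from 3.71 FPKM (3.447 to 4.229) to 1.62 (0.964 to 2.823, adjusted p = 0.000717, limma), with no overlap. Stab2, a stabilin that binds phosphatidylserine, fell from 0.713 (0.619 to 0.838) to 0.448 FPKM (0.349 to 0.592, adjusted p = 0.00199, limma), again with no overlap. Genotypes did not overlap in the lower direction for 26.3% of the table. C1qa fell to 70.7% of WT (adjusted p = 0.00426, limma) and its groups overlapped. Stab1, the other stabilin, rose from 0.445 (0.287 to 0.671) to 1.12 FPKM (0.82 to 1.349, adjusted p = 0.000104, limma), or 252.1% of WT against 245.6% for Tyro3. The scavenger receptor gene Msr1 rose to 161.5% of WT (adjusted p = 0.00515, limma) with overlapping groups. Marco, a scavenger receptor gene, was 0.227 FPKM in WT and 0.09 FPKM in mutants (adjusted p = 0.0680, limma).

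Among 58 receptor tyrosine kinases the table held 5, of which Axl and Pdgfra were lower and Tyro3, Ltk and Tie1, an endothelial receptor gene, were higher. All 5 passed an adjusted p under 0.05 (limma), where 61.8% of the table was lower and 33.2% higher. Tie1 went from 0.643 (0.475 to 0.824) to 0.903 FPKM (0.642 to 1.052, adjusted p = 0.0206, limma) and Pdgfra from 0.509 (0.381 to 0.611) to 0.352 FPKM (0.198 to 0.459, adjusted p = 0.0130, limma), and both overlapped between genotypes. Axl in the lower and Ltk in the higher direction were the 2 of these kinases past both thresholds, and Axl was the only one of the 5 above 10 FPKM in any mouse.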

How the data were processed

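RNA was isolated from 12 whole thymuses (6 WT and 6 Axl-/-Mertk-/-, 3 of each sex), and libraries were made from 500 ng of total RNA with a stranded mRNA kit and sequenced as single reads of 50 bases. Per the labels and the study's methods, the authors used CASAVA 1.8.2, FastQC, STAR 2.5.3a and HOMER 4.10.4 on mm10 and deposited log2(FPKM + 5) values, summed over exons of the top isoform, for 479 genes. The study tested genotype with DESeq2 and sex as covariate, and the rule that chose these genes is not given in the sources used here. The added 5 compresses differences of weakly expressed genes, so that complete loss of a gene at 1 FPKM gives -0.263 here.

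FPKM was computed as 2 to the power of the value, minus 5. All 479 genes were fitted with limma 3.58.1 (R 4.3.3; genotype and sex), with Benjamini-Hochberg adjustment, and single values were compared by exact permutation tests (scipy 1.17.1). limma replaced a count model because counts are not what the table holds. Depth per sample was estimated from the steps between low FPKM values of 97 genes with a mean under 0.5 FPKM, and reads behind a value follow from it and a RefSeq transcript length, so both are estimates and cover counting error only. Positions are from GENCODE vM21, which placed 471 of the 479 genes, with 8 not placed.

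Named genes were Axl and Tyro3, list members with a row, the 5 genes most and 3 least like each receptor, and the 5 nearest on the chromosome, of which 1 near Axl is not reported here. Other genes within 3 Mb of Tyro3 that are named were chosen after their values were seen. The members and lists were chosen with earlier results of these data known. Alternatives were other constants, a filter at a mean of 1 FPKM, leaving out sex, and leaving out each mouse. Samples are separate mice per the labels.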

Additional observations from a re-analysis of the deposited data

Results flagged for a closer look

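In each genotype the highest or lowest mouse was compared with the others by its gap to the nearest mouse as a share of the whole range. A share above 0.625 for 6 mice (Dixon's limit) was taken as standing apart. Of 68 groups tested 10 stood apart. Chance gives about 1 in 20 for independent groups, but these groups are not independent. Kcnk6 and C2 were named for their likeness to Axl, and Axl makes up most of its sum with Tyro3 in WT. The number of groups standing apart therefore cannot be set against that share. WT male 2 was the highest WT mouse in 6 of them, Axl (0.637), Axl plus Tyro3 (0.7436), C2 (0.812), Apoc1 (0.7719), C1qa (0.6689) and Kcnk6 (0.6608). Without this mouse the log2 change of Axl was -1.30 instead of -1.35. WT male 4, whose label ends in a letter b that is not explained, was highest for Marco (0.6576), at 0.497 FPKM. Among mutants, male 5 was highest for Marco (0.6427), male 3 lowest for Cdkn3 (0.6385) and female 4 highest for Tspan10 (0.6545).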

How the results depend on the processing

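The direction of the Axl, Tyro3, ratio and sum differences held under every alternative run. Leaving out each mouse in turn gave log2 changes of -1.37 to -1.30 for Axl and 0.25 to 0.30 for Tyro3, and 227.53% to 263.29% of WT for Tyro3. Tyro3 passed both thresholds with a constant of 1 (0.72) and of 0.1 (1.18), not with 5. The number of table genes past both thresholds was 29 (15 lower, 14 higher) and became 108 (57 lower, 51 higher) with a constant of 1 and 385 (244 lower, 141 higher) with 0.1, since a smaller constant enlarges the change of low genes, and 23 to 38 with a mouse left out. The correlation of Axl with Tyro3 changed sign in WT without the 2 mice farthest from the median (-0.20) or without male 2 (-0.57, range over single mice left out -0.57 to 0.53), and in mutants without the 2 farthest (-0.53) or without female 4 (-0.21, range -0.21 to 0.40). The unadjusted p of the Tyro3 interaction was 0.00651 without female 2 (limma, adjusted p = 0.347). Constants of 1 and 0.1 and single mutants left out, added after seeing the data, gave 7 to 10 genes within 2 Mb of Tyro3 with r beyond 0.8. With a mutant left out, 11.09% to 13.39% of all table genes were beyond 0.8, against 7.531% with none left out. The correlations without WT male 2 and the count of overlapping genes as 1 were also added after seeing the data. No paired analysis was possible because the labels give single mouse numbers that no WT and mutant mouse share. Counting error limits WT Tyro3 most, at about 59 to 92 reads.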
